A study of Mus musculus with 16 samples.

Results

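Ezh1, Ezh2, Eed, Suz12, Jarid2, Cbx2, Cbx6, Cbx7 and Cbx8 encode subunits of the Polycomb repressive complexes, and their transcripts were followed in mouse embryonic stem (ES) cells and in embryoid bodies (EBs) made from them. The 9 genes were taken by name from an expression table of 27807 genes, and each was found as 1 row and passed the filter on low values. Polyadenylated RNA had been sequenced from wild-type (WT, Taf4+/+) cells and from cells that carried 2 null alleles of Taf4a (KO, Taf4a-/-), the gene of a subunit of the general transcription factor TFIID. Per the methods of the study the null allele lacks exons 11 and 12, the mice carried it on a C57Bl6J background, and the ES lines came from blastocysts of heterozygous crosses. The ES cells of both genotypes were grown on inactivated mouse embryonic fibroblast feeders with LIF, and EBs, floating aggregates of differentiating cells, were treated with all-trans retinoic acid to direct them to glutamatergic neurons.

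The 8 groups were WT ES, WT EB4, WT EB5, WT EB8, KO ES, KO EB4, KO EB5 and KO EB8, with 2 libraries in each. EB4 was collected before retinoic acid, EB5 after its first day and EB8 later in the treatment, where the labels call the cells neural precursors. Of each genotype 2 independent lines were used, and no label ties a library to a line, so that p-values measure the spread between these libraries. Libraries of a genotype with the same replicate number deviated together across stages, in KO at all 4 and in WT at the 3 EB stages, so that the stages are not independent repeats of a difference between genotypes. Depth ran from 22442118 to 40711826 reads per library. Each ES library (32631020 reads or more) was deeper than every EB library (27685306 or fewer), so that the change from ES to EB and depth cannot be told apart. The depths of the EB stages overlapped. Both KO libraries were shallower than both WT libraries at EB4 and EB8 and deeper at ES. The transcript count of Taf4a, which takes in exons outside the deletion and so checks no label, was not lower in the KO libraries (log2 changes 0.41, 0.18, 0.28 and 0.29 from ES to EB8, limma adjusted p 0.194 or more). Genotypes are therefore those of the labels. In bulk RNA fewer cells of a type and less RNA per cell cannot be told apart.

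Polycomb repressive complex 2 (PRC2) places methyl groups on lysine 27 of histone H3, a mark of silenced developmental genes. Ezh2 or its paralogue Ezh1 is the catalytic subunit, Eed and Suz12 complete the core that the enzyme needs, and Jarid2 is an accessory subunit that helps to bring the complex to chromatin in ES cells. Cbx2, Cbx6, Cbx7 and Cbx8 are alternative subunits of canonical PRC1, and their chromodomains read the methylated lysine. Cbx7 is known as the main Cbx protein of pluripotent cells, in which it holds other Cbx genes silent, whereas Cbx2 and Cbx8 are known to take its place during lineage commitment.

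Most of the genes have a start region rich in CG dinucleotides. RefSeq start regions (250 bases before to 50 after the start, build GRCm38.p6) were on hand for 8 of the 9 genes, with 2 starts for Jarid2, and Cbx2 had no entry. Their CG dinucleotides ran from 17 in Eed to 41 in Suz12, against a median of 7 over the 32851 mouse regions of that table. The start regions are shown of Suz12 and Cbx7, which were higher in KO at EB8, of Ezh2, which was lower there, and of Cbx8, which rose in both genotypes. They lie at chr11:79992856-79993155 on the plus strand and at chr15:79932597-79932896, chr6:47594981-47595280 and chr11:119040864-119041163 on the minus strand. Each reads 5′ to 3′ along its gene. Capitals mark CCAAT or its reverse complement ATTGG, and the E2F-type words TTTCCCGC and TTTGGCGC or their reverse complements, all searched on both strands.
Suz12: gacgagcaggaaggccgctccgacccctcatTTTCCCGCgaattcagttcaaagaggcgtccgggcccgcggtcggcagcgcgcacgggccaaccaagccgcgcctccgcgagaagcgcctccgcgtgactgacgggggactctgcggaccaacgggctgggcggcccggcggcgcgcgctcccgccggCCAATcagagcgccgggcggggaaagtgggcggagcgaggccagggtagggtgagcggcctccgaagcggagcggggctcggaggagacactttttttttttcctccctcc
Cbx7: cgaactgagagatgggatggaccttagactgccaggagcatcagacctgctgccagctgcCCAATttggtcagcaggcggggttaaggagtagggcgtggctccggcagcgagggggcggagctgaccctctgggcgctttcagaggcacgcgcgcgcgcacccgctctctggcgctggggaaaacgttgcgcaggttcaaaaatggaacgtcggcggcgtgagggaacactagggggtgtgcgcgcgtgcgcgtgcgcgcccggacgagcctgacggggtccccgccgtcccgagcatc
Ezh2: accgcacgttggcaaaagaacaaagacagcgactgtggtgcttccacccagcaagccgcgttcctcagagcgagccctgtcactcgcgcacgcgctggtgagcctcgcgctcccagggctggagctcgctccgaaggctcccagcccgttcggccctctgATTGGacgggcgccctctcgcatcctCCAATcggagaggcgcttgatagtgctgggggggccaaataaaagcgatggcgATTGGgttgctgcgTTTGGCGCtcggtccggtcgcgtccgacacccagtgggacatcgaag
Cbx8: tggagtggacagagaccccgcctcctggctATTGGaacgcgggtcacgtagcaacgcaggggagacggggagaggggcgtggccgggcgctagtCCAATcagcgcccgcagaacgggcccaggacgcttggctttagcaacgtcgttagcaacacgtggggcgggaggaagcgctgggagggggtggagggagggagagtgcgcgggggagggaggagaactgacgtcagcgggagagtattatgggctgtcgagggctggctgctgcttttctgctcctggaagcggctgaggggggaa
CCAAT or ATTGG stood in a start region of 6 of the 8 genes, against 37.4% of all regions in the table. An E2F-type word stood in Suz12, with its first base 219 bases before the start, and in Ezh2, 3 bases after it, against 1.56% of all regions. TATAAA, searched likewise, stood in the second start region of Jarid2, 31 bases before that start, and in no other member, against 13.6% of all regions. These matches describe letters in a window, and no binding was measured here.

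Divided by the length of the exons (normalised read counts per kilobase, kb), Suz12, Eed, Cbx7 and Jarid2 were the most abundant members in WT ES cells. The length is that of all annotated exons of a gene merged, and the transcripts in use may be shorter. Orders and shares between genes depend on it. Suz12 stood at 2686 ± 726 per kb (SD, n = 2), Eed at 2490 ± 696, Cbx7 at 1939 ± 209 and Jarid2 at 1819 ± 328, and neighbours in that order overlapped. Ezh2 followed at 778 ± 145, clear of Jarid2 above and of Cbx6 below. Cbx6 (271 ± 49.9), Ezh1 (268 ± 232) and Cbx2 (256 ± 9.06) overlapped each with the next, and Cbx8 was far below at 7.45 ± 5.93. By EB8 the WT order was Suz12 (1126 ± 55.2), Ezh2 (1029.9 ± 69.6), Eed (934 ± 121), Jarid2 (834 ± 40.1), Cbx2 (659.7 ± 25.8), Cbx7 (281 ± 15.3), Cbx6 (265 ± 26.5), Ezh1 (109 ± 21.4) and Cbx8 (38.9 ± 1.60). There the neighbours Ezh2 and Eed, Eed and Jarid2, and Cbx7 and Cbx6 overlapped. In KO EB8 the order was Suz12 (2604 ± 695), Cbx7 (1379.6 ± 200), Eed (1316 ± 136), Jarid2 (1037 ± 98.9), Ezh2 (659.6 ± 118), Cbx2 (391 ± 13.0), Cbx6 (278 ± 4.51), Ezh1 (224 ± 75.9) and Cbx8 (51.0 ± 11.1). Cbx7 and Eed overlapped there, as did Cbx6 and Ezh1. Cbx7 thus stood in the sixth place in WT EB8 and in the second in KO EB8.

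**Figure D1:**
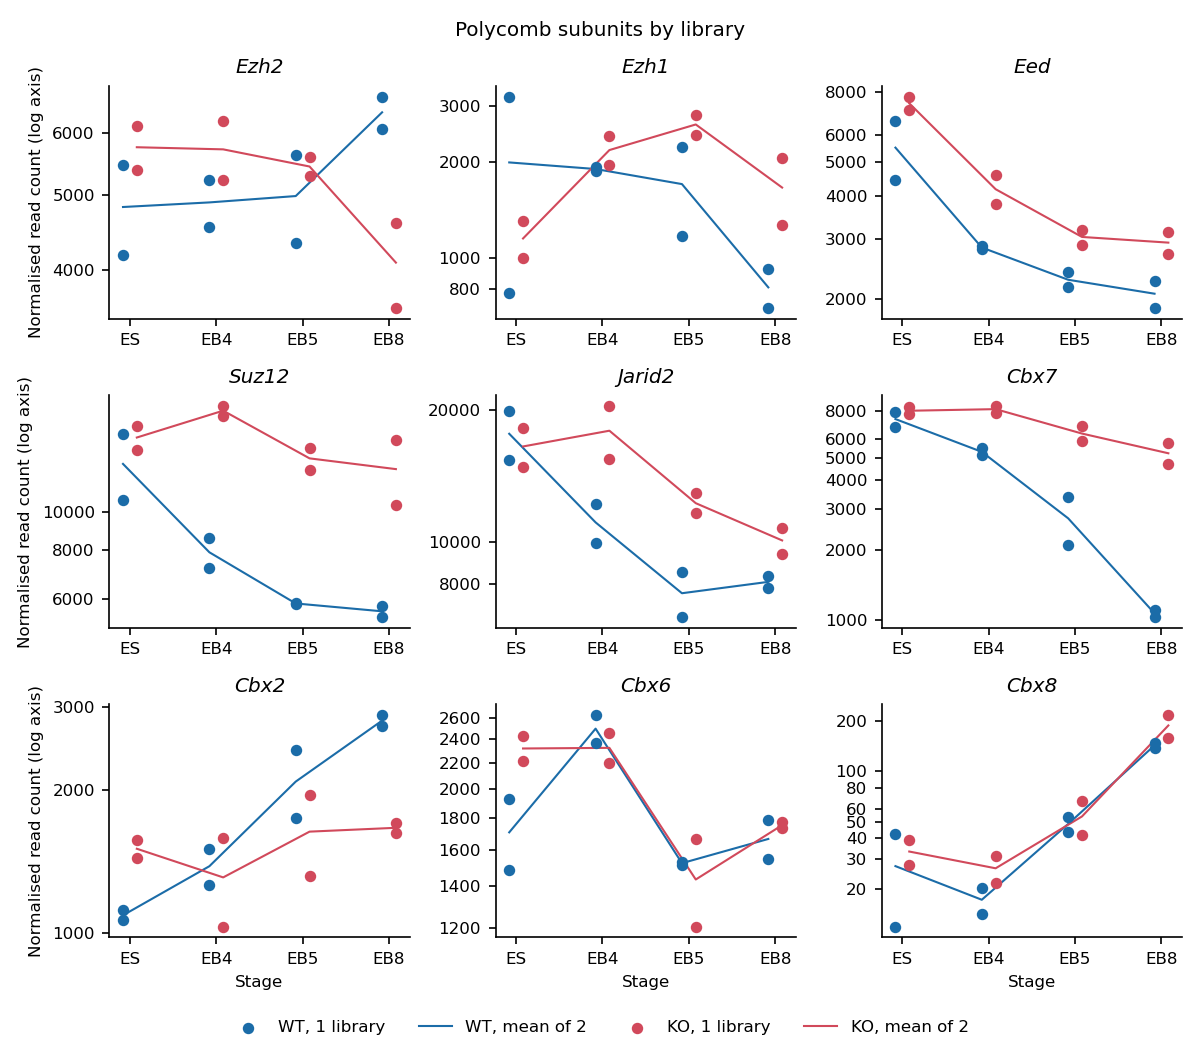
Normalised read counts (log axis) of the 9 genes at ES, EB4, EB5 and EB8, where each point is 1 library, each line joins the means of 2 libraries, and blue is WT and red KO. The WT points of Cbx7 fall from between 6788 and 7909 at ES to between 1023 and 1105 at EB8 while the KO points stay at 4693 or above.

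From ES to EB8 in WT, 6 of the 9 genes passed the threshold, which was a Benjamini-Hochberg adjusted p of 0.05 in limma on log2(normalised count + 1). Cbx2 and Cbx8 rose, and Cbx7, Eed, Suz12 and Jarid2 fell. The background was high, since 46.8% of the 16124 genes tested changed over the same interval, 24.0% upward and 22.8% downward. In KO, 4 of the 9 passed, with Cbx8 higher and Eed, Jarid2 and Cbx7 lower, against 37.7% of all genes (19.7% upward and 18.0% downward). Between the genotypes at a stage, no member differed at ES, where 0% of all genes did, and 1, 2 and 4 did at EB4, EB5 and EB8, against 6.12%, 4.34% and 22.9% of all genes.

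Suz12, the core subunit on which the stability of PRC2 depends, fell in WT and was higher in KO than in WT at each EB stage. Its normalised read counts in WT were 10743 and 15819 at ES, 7179 and 8597 at EB4, 5825 and 5842 at EB5, and 5377 and 5763 at EB8. In KO they were 16619.6 and 14412 at ES, 17648 and 18707 at EB4, 14624 and 12820.2 at EB5, and 15308 and 10450.0 at EB8. The genotypes overlapped at ES, and from EB4 on both KO libraries lay above both WT libraries. KO over WT was 2.31-fold at EB4 (log2 change 1.21, 95% interval 0.76 to 1.66, limma adjusted p = 0.0103), where Suz12 was the 1 member past the threshold, against 6.12% of all genes (2.75% higher and 3.37% lower). It was 2.35-fold at EB5 (1.23, 0.78 to 1.68, limma adjusted p = 0.0128) and 2.27-fold at EB8 (1.18, 0.73 to 1.63, limma adjusted p = 0.00179). The EB4 call was lost without WT EB4 replicate 1 or KO EB4 replicate 2 and in a fit of the compared groups alone, and the EB5 call without WT EB5 replicate 2 or KO EB5 replicate 2 (limma adjusted p up to 0.141 at EB4 and 0.129 at EB5). The fall from ES to EB8 was 1.23 on the log2 scale in WT (limma adjusted p = 0.000494), and in KO the change was -0.29 (interval -0.74 to 0.16, limma adjusted p = 0.290). The difference of these changes, 0.94 (0.30 to 1.57), did not pass after adjustment (limma adjusted p = 0.0705). It passed with a replicate block within each genotype (limma adjusted p = 0.0282), an alternative chosen after seeing the data. Same-numbered libraries of WT ES and WT EB8 did not deviate together (r = -0.048), so that block is weakly grounded for this difference.

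Suz12 lies on chromosome 11 (79806608 to 79847625, NCBIM37, plus strand), as do Ezh1, Cbx2 and Cbx8. The median log2 deviation of the tested genes of that chromosome was 0.18 to 0.28 in the 4 replicate 1 libraries of KO, and from -0.13 to 0.03 in all other libraries. With that level subtracted from each library the EB8 change of Suz12 was 0.98 (limma adjusted p = 0.00183) and that of Cbx2 was -0.95 (limma adjusted p = 0.00480). Of the exon bases of Suz12, 3.6% are shared with a long noncoding RNA gene on the other strand (Gm16706), and the use of strand in counting is not given in the sources used here.

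Eed, the subunit that binds the methylated tail and couples it to catalysis, fell in both genotypes. Its counts in WT were 6613 and 4431 at ES, 2798 and 2851 at EB4, 2160.5 and 2389.5 at EB5, and 2262 and 1881 at EB8. In KO they were 7096 and 7779.7, 3775 and 4581, 2882 and 3182, and 2705 and 3133 at the same stages. Both KO libraries were above both WT libraries at each stage, by log2 changes of 0.46, 0.56, 0.41 and 0.50 in turn, of which none passed the threshold (limma adjusted p 0.0793 or more). From ES to EB8 Eed fell by 1.39 on the log2 scale in WT (limma adjusted p = 0.000119) and by 1.35 in KO (limma adjusted p = 0.000299), and the difference of the falls was 0.04 with an interval from -0.54 to 0.62.

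Jarid2, which tethers PRC2 to its sites in ES cells, also fell in both genotypes. Its WT counts were 15420.1 and 19931 at ES, 12221 and 9938 at EB4, 8536 and 6719.5 at EB5, and 7823 and 8374 at EB8. The KO counts were 14809 and 18253 at ES, 15442 and 20482 at EB4, 11616 and 12904 at EB5, and 10754 and 9395 at EB8. The genotypes overlapped at ES, and the KO libraries lay above the WT libraries at the 3 EB stages. The log2 changes of KO over WT were 0.69 at EB4 and 0.69 at EB5, just short of the threshold (limma adjusted p = 0.0576 and 0.0676), and 0.31 at EB8 (-0.11 to 0.74). Over the course Jarid2 fell by 1.11 on the log2 scale in WT (limma adjusted p = 0.000665) and by 0.71 in KO (limma adjusted p = 0.0136), the latter call being lost under quantile normalisation, without KO ES replicate 2 and without KO EB8 replicate 2 (limma adjusted p up to 0.484). The difference of the changes was 0.41 with an interval from -0.20 to 1.01.

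Ezh2, the catalytic subunit of proliferating cells, parted between the genotypes at the last stage. The WT counts were 5456 and 4185 at ES, 4549 and 5223 at EB4, 4335 and 5624 at EB5, and 6077 and 6687 at EB8. Those in KO were 6134 and 5375, 5219.7 and 6217, 5285 and 5585, and 3572 and 4603. The genotypes overlapped up to EB5, and at EB8 both KO libraries were below both WT libraries. KO was 1.57-fold lower at EB8 (log2 change -0.65, interval -1.06 to -0.24, limma adjusted p = 0.0257). That call was lost without WT EB8 replicate 1, WT EB8 replicate 2 or KO EB8 replicate 1, under upper-quartile rescaling and in a fit of the compared groups alone (limma adjusted p up to 0.189). The changes from ES to EB8, 0.42 in WT and -0.50 in KO, did not pass on their own (limma adjusted p = 0.0873 and 0.0525), nor did their difference of -0.92 (limma adjusted p = 0.0562). With chromosome levels subtracted the KO change was -0.70 (limma adjusted p = 0.00625) and the difference -1.03 (limma adjusted p = 0.0219), both past the threshold. Both also passed with a replicate block within each genotype (limma adjusted p = 0.0467 and 0.0420), an alternative chosen after seeing the data. In edgeR neither of them passed. Of the exon bases of Ezh2, 2.81% are shared with a long noncoding RNA gene on the other strand (Gm17629), with the same limit on strand as for Suz12. Of 9 genes of the cell cycle, whose expression Ezh2 is known to follow, 2 were lower in KO at EB8, Mki67 (-0.92, limma adjusted p = 0.00223) and Top2a (-0.62, limma adjusted p = 0.0220), and none was higher. Over all genes 12.5% were lower there and 10.4% higher. The median of the 9 was -0.51, against -0.03 over all genes. Their summed counts at EB8 were 55966 and 59624 in KO and 79414 and 85195 in WT, and their part in the Ezh2 difference was not tested.

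Ezh1, the paralogue of Ezh2 that is known to prevail in resting cells, was the most variable member between libraries of a group. At ES the WT libraries gave 778 and 3215 normalised counts and the KO libraries 1306 and 998. Later WT counts were 1869.7 and 1938 at EB4, 2238 and 1176 at EB5, and 696 and 921 at EB8, and KO counts were 2409 and 1958, 2436 and 2819, and 2064 and 1266. Both KO libraries were above both WT libraries at each EB stage, and at EB8 the log2 change was 1.01 with an interval from -0.09 to 2.12 (limma adjusted p = 0.175), which takes in both no change and a 4-fold rise.

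At EB8 Ezh1 made up more of the catalytic pair in both KO libraries than in either WT library. Per kb, Ezh1 made up 10.6% and 39.0% of Ezh1 plus Ezh2 in the WT ES libraries, 25.5% and 23.6% at EB4, 30.1% and 14.8% at EB5, and 8.71% and 10.3% at EB8. In KO it made up 15.1% and 13.4% at ES, 27.8% and 20.8% at EB4, 27.7% and 29.6% at EB5, and 32.5% and 18.6% at EB8. The genotypes overlapped at ES, EB4 and EB5, and at EB8 the KO shares lay above the WT shares, with means of 25.6% ± 9.79 and 9.50% ± 1.12 (SD, n = 2). The two-sided exact permutation test gave p = 0.333 there, the smallest that 2 against 2 libraries allow.

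**Figure D2:**
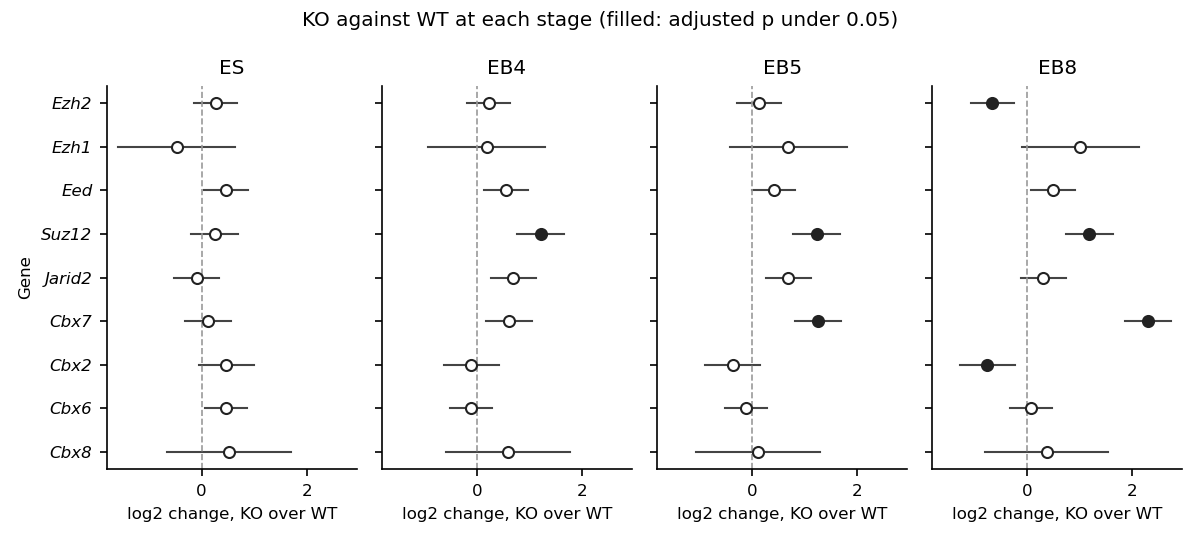
Log2 change of KO over WT for each of the 9 genes at ES, EB4, EB5 and EB8, with 95% intervals from limma as lines and filled points where the adjusted p was under 0.05. Cbx7 moves from 0.12 at ES to 2.29 at EB8, Suz12 is filled at the 3 EB stages, and Ezh2 and Cbx2 lie below 0 at EB8.

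Cbx7 carried the largest difference between genotypes at EB8 of the 9 genes. In WT its counts were 6788 and 7909 at ES, 5485 and 5123 at EB4, 3377 and 2097 at EB5, and 1105 and 1023 at EB8. In KO they were 7694 and 8271, 7838 and 8386, 5886 and 6838, and 5764 and 4693. The genotypes overlapped at ES, and at each EB stage both KO libraries lay above both WT libraries, by a margin that was wider at each later stage. The log2 change of KO over WT was 0.12 at ES (-0.31 to 0.56), 0.61 at EB4 (0.18 to 1.05, limma adjusted p = 0.0895), 1.25 at EB5 (0.82 to 1.69, limma adjusted p = 0.0122) and 2.29 at EB8 (1.85 to 2.72, limma adjusted p = 3.03e-05). At EB5, 2 members passed, Cbx7 and Suz12, both higher in KO, against 4.34% of all genes (2.17% higher and 2.17% lower). The EB5 call of Cbx7 was lost without WT EB5 replicate 2 or KO EB5 replicate 2 and in a fit of the compared groups alone (limma adjusted p up to 0.170). At EB8 its level in KO was 4.89-fold that in WT.

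The fall of Cbx7 in WT was spread over the course. It was 0.47 on the log2 scale from ES to EB4 (limma adjusted p = 0.128), 0.99 from EB4 to EB5 (limma adjusted p = 0.0159) and 1.32 from EB5 to EB8 (limma adjusted p = 0.00172). In KO the same steps gave 0.02, -0.35 and -0.29, none of which passed. Over the whole course Cbx7 fell by 2.78 in WT (limma adjusted p = 1.70e-06) and by 0.62 in KO (limma adjusted p = 0.0288). The KO fall lost its call without either KO ES library or KO EB8 replicate 2, under upper-quartile rescaling or quantile normalisation, and with chromosome levels subtracted (limma adjusted p up to 0.489). The changes differed between the genotypes by 2.17 (1.55 to 2.78, limma adjusted p = 0.00226). Of the 9 genes 2 passed this interaction test, Cbx7 upward and Cbx2 downward, against 7.29% of all genes (3.85% upward and 3.44% downward). With a replicate block within each genotype, chosen after seeing the data, 4 passed, Ezh2 and Suz12 besides. The share of all genes under that block is not given here.

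Cbx2, a Cbx protein known to compact chromatin, rose over the course in WT and was lower in KO than in WT at EB8. Its WT counts were 1115 and 1060.4 at ES, 1261.5 and 1501 at EB4, 1744 and 2429 at EB5, and 2886 and 2731 at EB8. Its KO counts were 1572 and 1436, 1586.5 and 1029.8, 1955 and 1315, and 1705 and 1627. Both KO libraries were above WT at ES, the genotypes overlapped at EB4 and EB5, and both KO libraries were below WT at EB8. In WT the rise from ES to EB8 was 2.58-fold (log2 change 1.37, interval 0.85 to 1.89, limma adjusted p = 0.000653), and in KO the change was 0.15 (-0.37 to 0.67, limma adjusted p = 0.657). KO was 1.69-fold lower at EB8 (log2 change -0.75, -1.27 to -0.23, limma adjusted p = 0.0397). The call at EB8 was lost without any 1 of the 4 EB8 libraries, without a filter on low values, under upper-quartile rescaling and under quantile normalisation (limma adjusted p up to 0.146). The difference of the changes over the course was -1.22 (-1.96 to -0.48, limma adjusted p = 0.0492) and kept its call in 8 of 21 alternatives.

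Cbx8, which lies beside Cbx2 on chromosome 11, rose from a low level in both genotypes. The WT libraries gave 42.8 and 12 normalised counts at ES, 14.2 and 20.4 at EB4, 53.6 and 43.9 at EB5, and 147 and 139 at EB8. The KO libraries gave 39 and 27.9, 31.5 and 21.7, 66.4 and 41.7, and 216 and 159. The EB8 libraries of each genotype were above all its earlier libraries, and the genotypes overlapped at ES and EB5, with KO above WT at EB4 and EB8. The rise over the course was 2.59 on the log2 scale in WT (1.42 to 3.77, limma adjusted p = 0.00202) and 2.45 in KO (1.28 to 3.63, limma adjusted p = 0.00405). Their difference was -0.14 with an interval from -1.80 to 1.52, so that a difference of 2-fold either way was not detectable here. At EB8 the log2 change of KO over WT was 0.37 (-0.80 to 1.55).

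Cbx6, one of the less studied Cbx proteins, passed in none of the comparisons in limma fitted without a block. Its WT counts were 1928 and 1484 at ES, 2368 and 2625 at EB4, 1532 and 1514 at EB5, and 1547 and 1783 at EB8. Its KO counts were 2214 and 2429, 2454.5 and 2199, 1207 and 1662, and 1731 and 1771.5. Both KO libraries were above WT at ES, and the genotypes overlapped at every later stage. The changes over the course were -0.03 in WT (-0.42 to 0.37) and -0.40 in KO (-0.80 to -0.01, limma adjusted p = 0.0993), and that of KO over WT at EB8 was 0.08 (-0.32 to 0.47). With a replicate block within each genotype, chosen after seeing the data, 2 of its steps in WT passed. They were from ES to EB4 (0.56, limma adjusted p = 0.0456) and from EB4 to EB5 (-0.71, limma adjusted p = 0.0452). Same-numbered libraries deviated together between WT EB4 and WT EB5 (r = 0.605) but not between WT ES and WT EB4 (r = -0.076). In the annotation 18.7% of its exon bases also belong to Npcd on the same strand. The expression table has no row for Npcd, and whether reads there were counted to Cbx6 or left out is not known.

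As shares of their summed level per kb, Cbx2 passed Cbx7 in WT by EB8 and did not in KO. Cbx7 made up 75.5% and 81.0% of the sum in the WT ES libraries, 68.1% and 63.5% at EB4, 57.2% and 40.2% at EB5, and 23.2% and 21.9% at EB8. Cbx2 made up 11.0% and 9.67% in WT ES, 14.0% and 16.6% at EB4, 26.3% and 41.4% at EB5, and 54.0% and 52.0% at EB8. It was above Cbx7 in WT EB5 replicate 2 but not in WT EB5 replicate 1, and above it in both WT EB8 libraries. In KO, Cbx7 made up 73.5% and 74.9% at ES, 72.8% and 78.7% at EB4, 69.9% and 75.5% at EB5, and 67.4% and 63.7% at EB8, and it was the largest share in each of these libraries. The KO share of Cbx2 was 13.4% and 11.6% at ES and 17.8% and 19.6% at EB8. At EB8 Cbx6 took means of 21.3% ± 2.41 in WT and 13.3% ± 1.61 in KO, and Cbx8 3.12% ± 0.0882 and 2.41% ± 0.275 (SD, n = 2). The mean share of Cbx7 differed between genotypes by 43.0 percentage points at EB8 with no overlap, and the two-sided exact permutation test gave 0.333, its smallest possible p. The sum itself was 2371 and 2575 per kb at ES and 1255 and 1232.5 at EB8 in WT, and it was 2762 and 2913 at ES and 2255 and 1945 at EB8 in KO.

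**Figure D3:**
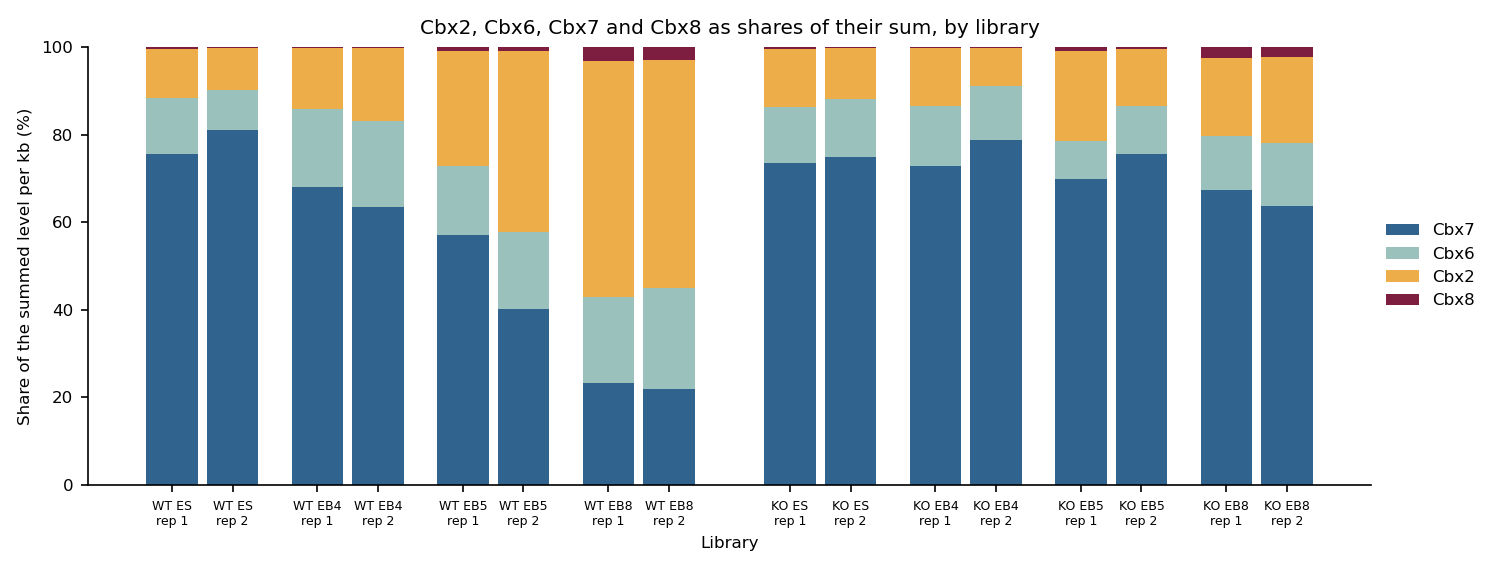
Shares of Cbx7, Cbx6, Cbx2 and Cbx8 in their summed level per kb (percent, bars stacked to 100), with 1 bar for each of the 16 libraries. The Cbx7 part narrows from between 75.5% and 81.0% to between 21.9% and 23.2% across the WT bars and is 63.7% or more in every KO bar.

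Set beside all genes, the count of members that differed between genotypes at ES was 0 in limma, in edgeR and in DESeq2. Over all genes tested limma also gave 0% (0% higher and 0% lower), and 2 members, Eed and Cbx6, had an unadjusted p under 0.05, as had 1846 genes in all. At EB8, 4 of the 9 passed, against 22.9% of all genes. Cbx7 and Suz12 were higher, against 10.4%, and Ezh2 and Cbx2 were lower, against 12.5%. The median log2 change of the 9 genes was 0.27 at ES, 0.56 at EB4, 0.41 at EB5 and 0.37 at EB8, and that of all genes was between -0.03 and 0.00 at each stage. Both KO libraries lay above both WT libraries for 3, 6, 5 and 6 members at the 4 stages in turn, against 19.03%, 25.3%, 26.7% and 30.4% of all genes. They lay below for 0, 0, 0 and 2 members, against 20.7%, 26.6%, 28.1% and 33.5%.

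By single steps, 3 PRC2 genes passed at the first of them in WT. From ES to EB4 in WT, Eed fell by 0.94 on the log2 scale (limma adjusted p = 0.00752), Suz12 by 0.73 (limma adjusted p = 0.0316) and Jarid2 by 0.67 (limma adjusted p = 0.0360), which made 3 of the 9 genes against 16.5% of all. Cbx7 alone passed from EB4 to EB5 (1 of 9, against 3.73%) and from EB5 to EB8 (1 of 9, against 10.4%). In KO, Eed alone passed from ES to EB4 with a fall of 0.84 (limma adjusted p = 0.0347, 1 of 9, against 3.50%). No member passed in KO from EB4 to EB5 (against 2.51%) or from EB5 to EB8 (against 0.738%), where 3 and 2 members had an unadjusted p under 0.05, edgeR passed 0 and 0, and DESeq2 passed 1 and 1. The differences of these steps between genotypes passed for no member in limma, against 0%, 0% and 0.781% of all genes in turn. For them 2, 1 and 2 members had an unadjusted p under 0.05, as had 1129, 478 and 1568 genes in all. Of the members edgeR passed none, and DESeq2 passed 0, 0 and 1. Of the calls by step, those of Suz12 and Jarid2 were lost without WT ES replicate 2 or either WT EB4 library. Both were also lost without a filter and in the compared groups alone, and that of Suz12 under quantile normalisation. The Cbx7 call at EB5 was lost without WT EB4 replicate 1 or WT EB5 replicate 2 and in the compared groups alone. Outside the fits without a library, limma adjusted p reached 0.206 for Suz12, 0.208 for Jarid2 and 0.197 for Cbx7. The Eed call in WT was lost in the compared groups alone (limma adjusted p = 0.137). That of Eed in KO was lost without any 1 of its 4 libraries (log2 change -0.98 to -0.70). It was also lost without a filter, under quantile normalisation and in the compared groups alone.

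**Figure D4:**
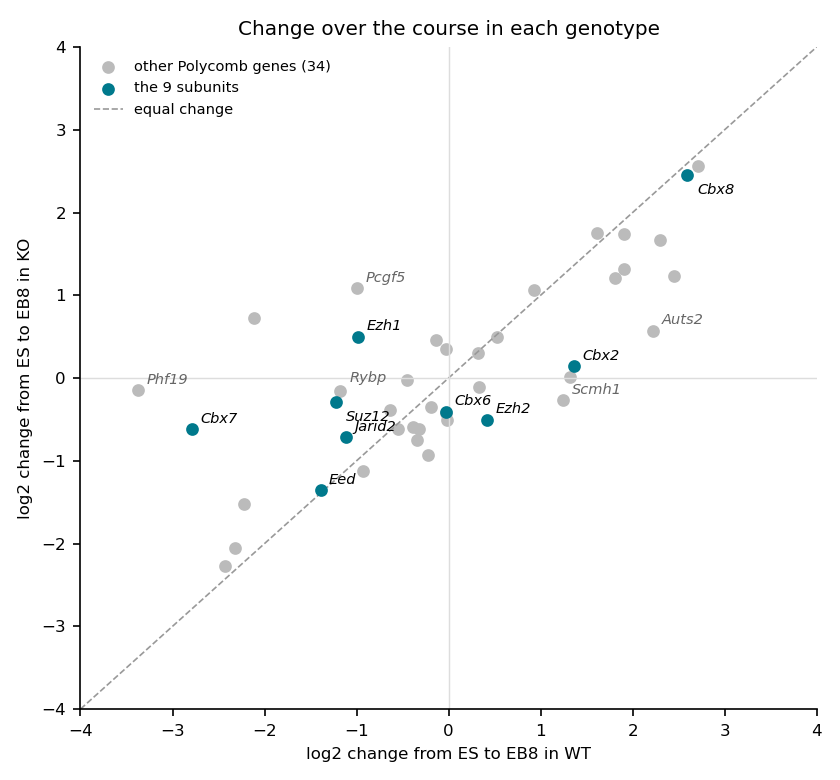
Log2 change from ES to EB8 in WT (horizontal) and in KO (vertical) for the 9 subunits (teal) and 34 other Polycomb genes (grey), with the dashed line marking equal change. Eed and Cbx8 lie near the line, whereas Cbx7 (-2.78 in WT and -0.62 in KO) and Cbx2 (1.37 and 0.15) lie off it.

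Of 34 other genes of Polycomb complexes and their opponents, 6 were higher and 6 lower in KO at EB8, against 10.4% and 12.5% of all genes, with a median change of -0.15 against -0.03 over all genes. The furthest above WT was Phf19, a PRC2 accessory protein that binds methylated lysine 36. At EB8 the WT libraries gave 64.1 and 107 counts and the KO libraries 1469.7 and 522 (log2 difference 3.39, limma adjusted p = 0.00121). Its ES counts were 552 and 1366 in WT and 1033 and 913 in KO, and the WT EB8 libraries were the lowest of the 16. Also higher were Rybp, which takes the place of Cbx proteins in variant PRC1 (1.26, limma adjusted p = 0.000152), Pcgf5, a RING finger subunit of variant PRC1 (1.22, limma adjusted p = 0.0362), and Mtf2, a PRC2 accessory protein of ES cells (0.95, limma adjusted p = 0.00315). The furthest below WT were Asxl3, a partner of the deubiquitinase that opposes PRC1 (-1.91, limma adjusted p = 0.00550), and Auts2, a PRC1 partner of neurons (-1.84, limma adjusted p = 0.000460). For Auts2 the WT EB8 libraries gave 2920.4 and 3669 counts, and the KO EB8 libraries gave 921 and 912. Yaf2, the paralogue of Rybp (-1.31, limma adjusted p = 0.0129), and Scmh1, a Polycomb protein with a SAM domain (-1.10, limma adjusted p = 0.00532), were lower too. By limma the call was lost without 1 library for Asxl3 (KO EB8 replicate 1) and for Scmh1 (WT EB8 replicate 2). It was likewise lost for Yaf2 (either WT EB8 library or KO EB8 replicate 1) and for Pcgf5 (the same 3). The call of Pcgf5 was also lost without a filter on low values and in a fit of the compared groups alone. At ES 0 of the 34 passed in limma (4 with an unadjusted p under 0.05, 0 in edgeR and 1 in DESeq2), where 0% of all genes did. At EB4 4 were higher and 2 lower, against 2.75% and 3.37% of all genes, and at EB5 4 were higher and 0 lower, against 2.17% and 2.17%. From ES to EB8, 12 rose and 9 fell in WT (against 24.0% and 22.8% of all genes) and 10 rose and 10 fell in KO (against 19.7% and 18.0%). The changes of 5 differed between the genotypes, against 7.29% of all genes, Phf19, Pcgf5 and Rybp upward and Auts2 and Scmh1 downward.

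Cbx1, Cbx3 and Cbx5 encode the HP1 proteins, chromodomain relatives that read methylated lysine 9 and belong to no Polycomb complex. Cbx3 was lower in KO at EB8 (-0.60, limma adjusted p = 0.0236), whereas Cbx1 (-0.45, -0.94 to 0.03) and Cbx5 (-0.55, -1.01 to -0.08) did not pass (limma adjusted p = 0.165 and 0.0844). The Cbx3 call was lost without any 1 of the 4 EB8 libraries, under upper-quartile rescaling and in a fit of the compared groups alone.

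Markers of cell state moved with these differences. At EB8 10.4% of all genes were higher in KO and 12.5% lower. Of the pluripotency list, 6 of 7 genes had passed as higher in KO by EB8, and their summed counts there were 24620 and 27777 in KO and 1382 and 1766 in WT, against 94178 or more in each ES library. Of 5 neural progenitor genes measured 4 were lower, with sums of 26215 and 28212 in WT EB8 but 4802 and 4887 in KO EB8. All 4 neuronal genes measured were lower, with sums of 1187 and 1448 against 13824 and 17755. The progenitor and neuronal sums were thus higher in WT EB8 than in KO EB8. None of the markers in these 3 lists was at 0 in any EB8 library. From ES to EB8 in WT, 3 of the 4 neuronal genes rose and Stmn2 fell (-1.85, limma adjusted p = 0.0147). The neuronal sums were already 7937 and 8942 in WT ES and 9900 and 10258 in KO ES. At EB4 and EB5 Tubb3 alone of the neuronal genes passed, higher in KO (1.46 and 1.60, limma adjusted p = 0.0127 and 0.0128). Of 4 endoderm genes 2 were lower in KO EB8 (sums 604 and 665 against 1526 and 1779). The 7 fibroblast genes, which mark feeders, summed to 1033 and 2650 in WT ES and to 209 and 494 in KO ES, and Lum was at 0 in KO ES replicate 1. Of the 6 tested, 0 passed at ES in limma (3 with an unadjusted p under 0.05, 0 in edgeR and 3 in DESeq2). The part of these markers in the differences of the Polycomb genes was not tested.

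Over the 16 libraries, the genes most like each member were given by the highest Pearson r of log2(count + 1) among tested genes that averaged 100 or more normalised counts, as a description in which the points share genotype and stage. For Cbx7 they were Pycard (r = 0.978) and Sec14l4 (0.971), for Suz12 Ulk1 (0.963) and Manba (0.947), and for Eed Atg16l1 (0.977) and Noc3l (0.977). Jarid2 was followed most closely by Alg13 (0.959) and Plekhm1 (0.952), Cbx2 by Ccnjl (0.958) and the Polycomb-related gene Sfmbt1 (0.944), and Cbx8 by Mbd2 (0.946). The closest genes were less like Ezh1 (Pnpla7 0.911 and Ninj1 0.911), Ezh2 (Trim2 0.872 and Zfp101 0.869) and Cbx6 (Setd1a 0.827 and Clk2 0.764).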

How the data were processed

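Polyadenylated RNA was measured in 16 libraries (TruSeq, single-end reads), 2 for each genotype and stage of the labels. Per the submitters' notes and methods, the authors aligned reads to mouse build mm9 with TopHat2 2.0.10, counted with HTSeq 0.5.4p3 and normalised with DESeq2 1.0.19, after CASAVA 1.7 and 1.8. The deposited signal is a normalised read count, scaled by the authors with 1 size factor per library. Every value (100%) came out as a whole number of reads within 0.01 read once that factor was undone. These reads gave the depths, and edgeR and DESeq2 were run on them as alternatives. Exon lengths (all annotated exons of a gene merged) and positions came from GENCODE M1 on NCBIM37, which held 27603 of the 27807 identifiers.

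The test was limma 3.58.1 (R 4.3.3) on log2(normalised count + 1), which understates changes of low genes, with a mean for each of 8 groups, eBayes with trend (8 residual and 4.27 prior degrees of freedom), only genes averaging 10 or more normalised counts, and Benjamini-Hochberg adjustment over 16124 genes. It was tested on simulated data. Alternatives were a pseudocount of 0.1 or 5, dropping the filter or raising it to 50, subtraction of chromosome levels, upper-quartile rescaling, quantile normalisation, the compared groups alone, a replicate block over all libraries or within each genotype, edgeR 4.0.16, DESeq2 1.42.0 and leaving out each library. Same-numbered differences correlated across all 6 pairs of KO stages (0.233 to 0.422) and the 3 pairs of WT EB stages (0.523 to 0.605), but not between WT ES and WT EB (-0.179 to -0.048). This pairing comes from the data and not from the labels. Shares were also computed without length. Python 3.11.15 was used for the remaining steps. The members, lists and tests were chosen with earlier results of these data known. Named are the 9 members, the HP1 paralogues, of the 34 other Polycomb genes those past the threshold in KO against WT at EB8 with the 4 largest rises and falls, markers that moved beside a member, and the 2 genes most like each member, less 2 genes that are not reported here. The progenitor marker Sox1 was not analysed here, nor was 1 of 5 neuronal markers.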

Additional observations from a re-analysis of the deposited data

Results flagged for a closer look

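The change from ES to EB8 differed between the genotypes by the interaction test of limma for 2 of the 9 genes. Cbx7 fell by 2.78 in WT and by 0.62 in KO on the log2 scale, a difference of 2.17 (limma adjusted p = 0.00226, range over 21 alternatives 1.63e-09 to 0.0132). Cbx2 rose by 1.37 in WT and its change in KO, 0.15, did not pass, a difference of -1.22 (limma adjusted p = 0.0492, range over 21 alternatives 0.0116 to 0.147). The second value lies at the threshold. Groups of 2 libraries are too small to test a library for standing apart from its group.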

How the results depend on the processing

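Of 1173 values of single genes under the alternatives, 1049 kept direction and side of the threshold, 64 lost the call, 31 gained one and 29 changed sign, all 29 of them with an adjusted p over 0.05. Only results that had passed could lose a call, and many of the 1173 values belong to results that had not. The 64 are therefore not a share of 1173. Cbx7 and Suz12 at EB8 kept their calls in 16 of 16 alternatives each, as did the 6 changes over the course in WT and those of Eed and Cbx8 in KO in 17 of 17. With 2 libraries a group, a lone library left in a group is assumed to vary like the others. For no other value was the cause of a change tested.

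The number of members past the threshold at EB4 was 1. It was 3 in DESeq2, 2 in the replicate block with the KO numbers exchanged (chosen after seeing the data), 0 in a fit of the compared groups alone and 0 to 2 without 1 library. At EB5 it was 2, against 1 in the compared groups alone and 0 to 2 without 1 library, and at EB8 it was 4 and 2 to 4. Over the course in KO it was 4, against 2 under quantile normalisation and 2 to 4 without 1 library. The interaction passed 2 members, and 1 with a pseudocount of 0.1, 1 without a filter, 1 in edgeR, 4 in DESeq2, 4 in the replicate block within each genotype (chosen after seeing the data) and 1 to 4 without 1 library. Of the single steps 6 values passed, 3 without a filter, 12 in DESeq2, 1 in the compared groups alone and 3 to 10 without 1 library. Undivided by length, the share of Ezh1 was 16.6% in KO ES and 11.2% in WT EB8.

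The replicate block passed 1, 2 and 4 members at EB4, EB5 and EB8, 6 and 5 over the course in WT and KO, 3 in the interaction and 6 by step. Same-numbered differences between WT and KO correlated at 0.335, -0.058, -0.209 and -0.133 from ES to EB8, so the numbers were not taken to pair libraries between genotypes. Those of WT ES also correlated with KO EB4 (0.281) and KO EB5 (0.368), and little with KO EB8 (0.056). The correlation among the KO stages was therefore shared in part by WT ES. The replicate block within each genotype passed 6 and 5 members over the course in WT and KO and 8 values by step. The shares of all genes that passed under either block are not given here. These counts therefore cannot be read as a gain of the members in particular.

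Signs changed for Cbx8 at EB5 in KO against WT (-0.056 under quantile normalisation, -0.057 with chromosome levels subtracted), for Cbx6 over the course in WT (0.085 with chromosome levels subtracted), for Suz12 over the course in KO (0.24 under quantile normalisation), and for the interaction of Cbx8 (0.054 under upper-quartile rescaling, 0.11 in edgeR, 0.099 in DESeq2). Without 1 library the changes of sign lay within these ranges of log2 change. For KO against WT at ES they were Ezh1 -1.49 to 0.55, Suz12 -0.032 to 0.53, Jarid2 -0.28 to 0.092, Cbx8 -0.37 to 1.39. For KO against WT at EB4 they were Cbx2 -0.42 to 0.21. For KO against WT at EB5 they were Ezh2 -0.050 to 0.33, Cbx6 -0.34 to 0.13, Cbx8 -0.21 to 0.44. For KO against WT at EB8 they were Cbx6 -0.026 to 0.18. Over the course in WT they were Ezh1 -2.004 to 0.041, Cbx6 -0.21 to 0.16. In the interaction they were Eed -0.25 to 0.33, Cbx8 -1.02 to 0.74.

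Upper-quartile rescaling moved the median change of all genes at EB8 to 0.11 and of the interaction to 0.16. It gave 58.5% of genes past the threshold as higher at EB8 (55.9% under quantile normalisation, 45.4% as reported) and 68.2% in the interaction (52.8% as reported). Over all genes, 986 passed at EB4 (2077 in DESeq2, 609 without a filter, 0 in the compared groups alone), 700 at EB5 (1719, 447 and 72), 1175 in the interaction (2330 in DESeq2), and 0 at ES (476 in DESeq2, 0 in edgeR and 0 to 19 otherwise).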
